A study of Mus musculus with 6 samples.

Results

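Guanylate-binding proteins are large GTPases that interferon-γ induces in macrophages. The 8 family genes described here, Gbp2, Gbp3, Gbp4, Gbp5, Gbp6, Gbp7, Gbp8 and Gbp9, were taken by symbol from the 19309 genes of a count table of M2c macrophages. The libraries came from 3 mice lacking the soluble epoxide hydrolase (sEH-/-, gene Ephx2) and 3 wild-type mice, with 1 library per mouse. The mice were 8 to 10 weeks old, and according to the methods of the study littermates matched by strain served as wild-type, most cells of the study coming from females. Bone marrow monocytes of both genotypes were kept for 7 days in M-CSF and GM-CSF at 15 ng/mL each, given LPS (10 ng/mL) with IFN-γ (1 ng/mL) for an M1 step of 24 h, and then given TGF-β1 (10 ng/mL) for a further 48 h to reach the M2c state. These hours are those of the labels, and the methods of the study give a shorter M1 step. Every library had therefore been exposed to IFN-γ, and without cells that never saw it, the induction of the family itself could not be measured. The question was whether the family differed between the genotypes.

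Interferon-γ binds a receptor made of Ifngr1 and Ifngr2, whose kinases pass the signal to the nucleus, where transcription factors such as Irf1 switch on the Gbp genes. The encoded proteins bind and hydrolyse GTP, assemble on the vacuoles and membranes of intracellular parasites and bacteria, and help to break them open. By exposing bacterial lipopolysaccharide and DNA they feed the inflammasomes that process interleukin-1β and interleukin-18 and cut gasdermin D.

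The 8 genes lie in 2 clusters (mm10). On chromosome 3, on the plus strand, the table places Gbp5 (ENSMUSG00000105504) at chr3:142493978-142522344, Gbp7 (ENSMUSG00000040253) at chr3:142530342-142550149, Gbp3 (ENSMUSG00000028268) at chr3:142560026-142573209 and Gbp2 (ENSMUSG00000028270) at chr3:142620602-142638008. On chromosome 5, on the minus strand, it places Gbp8 (ENSMUSG00000034438) at chr5:105014150-105139540, Gbp9 (ENSMUSG00000029298) at chr5:105077630-105139539, Gbp4 (ENSMUSG00000079363) at chr5:105115767-105139586 and Gbp6 (ENSMUSG00000104713) at chr5:105270702-105293698. The annotated starts of Gbp8 and Gbp9 are adjacent bases, and that of Gbp4, at 105139586, lies close to them. All 8 are annotated as protein-coding. Protein names in the same table follow a different numbering, which calls the product of Gbp3 a Gbp4 and that of Gbp7 a Gbp6, and the gene symbols are used here.

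Promoters of the chromosome 3 members are shown, since the promoter table used here had entries for these 4 members, to set the interferon-responsive letters before their starts beside their levels. Each runs from 250 bases before to 50 bases after a RefSeq start (GRCm38.p6, plus strand), 5′ to 3′, and spans upstream sequence and the beginning of the transcript. Capitals mark the gamma-activated site (GAS), searched as TTCNNNGAA, and the core of the interferon-stimulated response element (ISRE), searched on both strands as GAAA, any 2 bases and GAAA.
Gbp5, chr3:142496684-142496983: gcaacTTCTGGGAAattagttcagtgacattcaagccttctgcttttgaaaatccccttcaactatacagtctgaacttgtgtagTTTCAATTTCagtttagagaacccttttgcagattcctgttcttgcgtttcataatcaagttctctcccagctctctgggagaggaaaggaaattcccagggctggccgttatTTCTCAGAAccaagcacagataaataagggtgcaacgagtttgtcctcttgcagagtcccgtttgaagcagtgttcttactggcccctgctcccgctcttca
Gbp7, chr3:142530086-142530385: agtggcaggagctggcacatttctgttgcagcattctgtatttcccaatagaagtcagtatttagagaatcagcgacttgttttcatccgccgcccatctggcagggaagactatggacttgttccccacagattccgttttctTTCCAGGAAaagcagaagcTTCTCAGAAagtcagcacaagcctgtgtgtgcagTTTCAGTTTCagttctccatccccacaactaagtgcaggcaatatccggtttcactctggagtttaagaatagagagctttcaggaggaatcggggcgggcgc
Gbp3, chr3:142559794-142560093: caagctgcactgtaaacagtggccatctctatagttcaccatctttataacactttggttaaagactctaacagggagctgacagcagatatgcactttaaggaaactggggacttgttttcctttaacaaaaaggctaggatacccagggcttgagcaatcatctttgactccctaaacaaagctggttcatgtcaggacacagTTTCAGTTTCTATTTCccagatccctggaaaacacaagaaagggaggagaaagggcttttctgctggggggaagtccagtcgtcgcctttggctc
Gbp2, chr3:142620413-142620712: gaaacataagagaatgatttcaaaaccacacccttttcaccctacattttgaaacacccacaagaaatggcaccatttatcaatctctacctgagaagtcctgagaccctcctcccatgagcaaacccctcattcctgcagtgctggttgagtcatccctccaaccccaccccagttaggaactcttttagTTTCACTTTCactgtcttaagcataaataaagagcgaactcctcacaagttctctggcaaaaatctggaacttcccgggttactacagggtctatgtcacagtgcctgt
All 4 windows held an ISRE core on the minus strand, read as TTTCAATTTC in Gbp5, TTTCAGTTTC in Gbp7, TTTCAGTTTC overlapping TTTCTATTTC in Gbp3, and TTTCACTTTC in Gbp2. Their first bases lay 165 bases before the RefSeq start in Gbp5, 53 in Gbp7, 45 and 39 in Gbp3, and 59 in Gbp2. These RefSeq starts differ from the gene starts given above. By those gene starts, the Gbp5 window lies wholly inside the gene, and the ISRE core of Gbp2 begins just after the start. GAS letters were found in Gbp5 (TTCTGGGAA and TTCTCAGAA, 245 and 52 bases before the start) and in Gbp7 (TTCCAGGAA and TTCTCAGAA, 106 and 87 bases before it). For comparison, 3.44% of 32851 mouse promoter windows of this length held the ISRE core, 8.3% held the GAS letters and 0.454% held both. A further RefSeq window of Gbp3, at chr3:142560106-142560405, had neither. A match of letters is not a measured binding site, and promoters of the chromosome 5 members are not shown.

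Because the genes are copies of one another, reads from identical stretches cannot be assigned, and the study dropped reads with several alignments and reads over several genes. In the GENCODE M21 transcripts, between 1.4% (Gbp5) and 18.1% (Gbp8) of 50-base stretches also occurred in another gene for all members but one. Gbp6 was the exception, at 70.7%. Of its exon bases, 29.0% lay inside exons of Gm43302 on the same strand, and Gm43302 was not analysed here. Gbp6 and the neighbouring Gbp10 shared 421 identical coding bases in 1 run. For each cluster, the longest coding run identical between 2 members is given 5′ to 3′, because reads inside it cannot be counted for either gene. The first is bases 502 to 645 of the Gbp4 coding sequence (chr5:105123119-105125276, minus strand, over 2 exons), shared with Gbp9 (chr5:105085164-105094212). The second is bases 928 to 1050 of Gbp3 (chr3:142567621-142567743, plus strand, within 1 exon), shared with Gbp7 (chr3:142542923-142543045).
Gbp4 and Gbp9: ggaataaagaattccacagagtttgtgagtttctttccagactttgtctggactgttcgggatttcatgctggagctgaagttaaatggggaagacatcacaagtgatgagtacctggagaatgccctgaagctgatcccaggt
Gbp3 and Gbp7: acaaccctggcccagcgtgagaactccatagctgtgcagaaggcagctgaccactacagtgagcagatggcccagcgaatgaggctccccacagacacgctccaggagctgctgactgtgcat

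**Figure D1:**
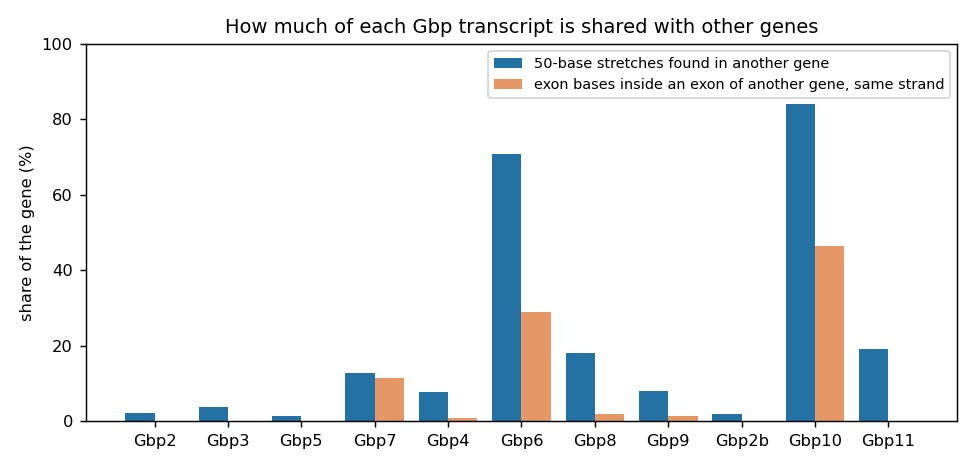
Share of each Gbp gene (vertical axis, %) found in other genes, as 50-base stretches of its transcripts (blue) and as exon bases inside an exon of another gene on the same strand (orange). Gbp6 (70.7%) and Gbp10 (84.1%) stand above the other genes, whose blue bars reach at most 19.2%.

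The libraries held 4400197 to 6096440 counts, of which the 8 members took 5122 to 8075 per library, or 0.112% to 0.139%. Counts of Ephx2, the deleted gene, were 4, 2 and 1 with the deletion against 26, 49 and 57 without it, or -4.05 on the log2 scale (SE 0.43, edgeR adjusted p = 0.0042). Defining macrophage transcripts were present in every library (7 of 7 markers, summed level 1621 to 2253 CPM). Summed neutrophil markers (6 of 8 listed, most of it S100a8) were 28.2 to 31.9 CPM in sEH-/- against 17.4 to 21.2 CPM in wild-type. None of them was at 0 in all libraries. Only S100a8 had enough counts to be tested, and it was not called (log2 fold change 0.54, SE 0.14, edgeR adjusted p = 0.057). The other neutrophil markers, with mean counts of 1.33 to 3.33, were not tested, so a call was not possible for them. Dendritic markers (4 of 6 listed) were at 27.0 to 57.7 against 42.2 to 58.9 CPM, stromal and endothelial markers (6 of 6) at 14.4 to 30.1 against 11.7 to 62.3 CPM, and the erythroid factor Klf1 at 0.605 to 1.62 against 0.811 to 1.97 CPM. Lymphocyte markers were not analysed here. The part of other cells in the Gbp levels was not tested, and in bulk RNA fewer cells of a type and less RNA per cell cannot be told apart.

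Wild-type M2c macrophages carried transcripts of all 8 members. Levels between genes were set on CPM per kb of exon, that is, counts scaled to the normalised library size (CPM) and divided by exonic length, and are means ± SD over the 3 wild-type mice. Gbp2, whose prenylated product is recruited to pathogen vacuoles, was highest at 107 ± 9.91 CPM per kb, above 99.6% of the genes tested. Gbp3 followed at 61.6 ± 4.41, above 96.7% of genes. These values place both genes among the strongly transcribed genes of the cells.

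Gbp8 came next at 35.1 ± 1.20 CPM per kb, followed by Gbp7 at 31.5 ± 1.73 and Gbp5 at 26.6 ± 1.32. The 3 wild-type values of Gbp8 (34.2, 34.7 and 36.5), Gbp7 (33.4, 31.0 and 30.1) and Gbp5 (27.9, 25.2 and 26.8) did not overlap, so this order held in each wild-type library. Gbp4 and Gbp9 were lower, at 17.4 ± 2.32 and 16.9 ± 3.32, and did not differ beyond their spread. Gbp6 was lowest at 6.03 ± 0.628 CPM per kb, above 35.7% of genes. Divided instead by the exon free of shared 50-base stretches, its level was 20.5 ± 2.14, which moved it from rank 8 to rank 6, between Gbp5 and Gbp4. This second value assumes reads of 50 bases and that no read over Gm43302 was counted for Gbp6, whereas the read length is not given in the sources used here and Gm43302 was not analysed, so the place of Gbp6 in the order is uncertain. Over the same kind of sequence Gbp8 was at 42.9 and Gbp7 at 36.1 CPM per kb, with ranks 3 and 4 as before.

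No member was called different between the genotypes. A call required a Benjamini-Hochberg adjusted p below 0.05 over the 13785 genes tested (edgeR quasi-likelihood) and a fold of more than 1.5 in either direction. By that rule 2.61% of tested genes were called, 1.51% higher and 1.1% lower in sEH-/-, and DESeq2 called 3.42% of genes and again 0 of the 8 members. With no fold threshold 0 members passed, against 4.01% of tested genes. All 8 members passed the filter of more than 5 counts on average. At an unadjusted p below 0.05, 2 members were higher (Gbp6 and Gbp9) and 1 was lower (Gbp8), against 11.1% and 12.2% of all tested genes and 23.4% in either direction. The genotypes did not overlap for 1 member that was higher and 1 that was lower, against 11.8% and 14.5% of tested genes. Of the log2 fold changes, 7 of 8 were above 0, against 49.8% of tested genes, and their median was 0.046, against -0.001. Exact permutation of 3 against 3 libraries cannot give a two-sided p below 0.1, so single values were judged by the fit across genes.

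**Figure D2:**
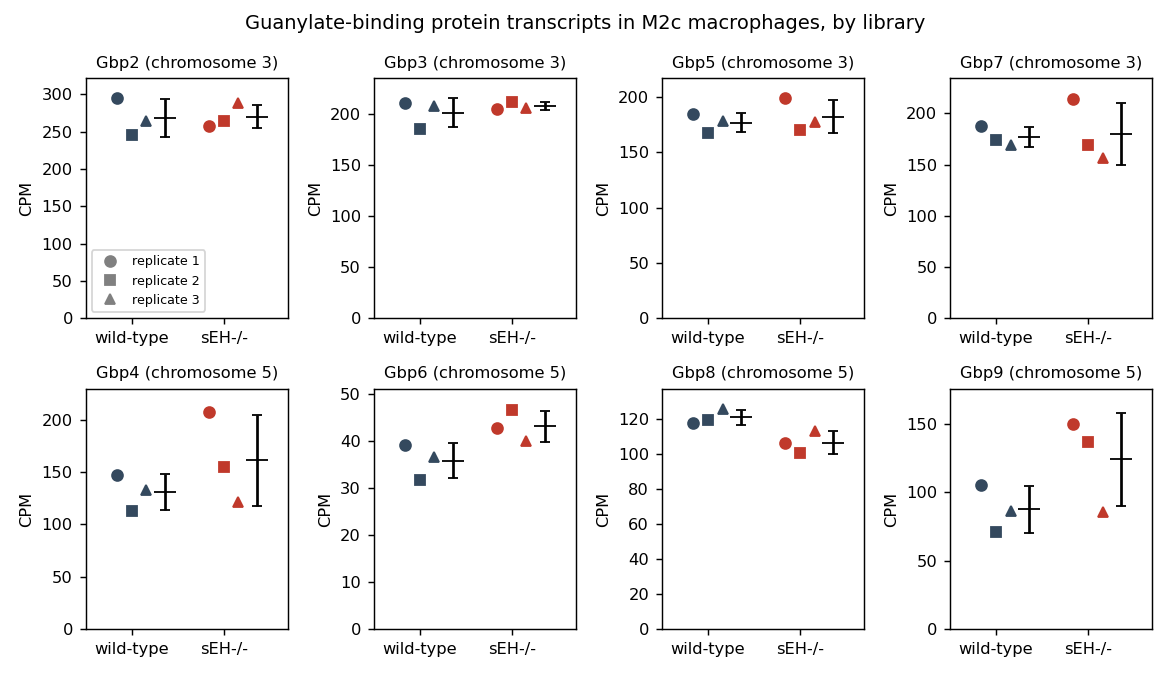
CPM (vertical axes, from 0) of the 8 members in each library, with wild-type in dark blue and sEH-/- in red, the symbol giving the replicate and the bar the mean ± SD of 3 mice. For Gbp6 every sEH-/- library lies above every wild-type library and for Gbp8 below, while the genotypes overlap for the other 6 genes.

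The chromosome 3 members were at nearly the same level in both genotypes. Gbp2 was at 258, 265 and 288 CPM in sEH-/- against 295, 245 and 265 CPM in wild-type. The lowest and the highest value were both wild-type. In the fit across genes the log2 difference was 0.011 (SE 0.087, adjusted p = 0.956), and the 95% interval of the fold ran from 0.881 to 1.15.

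Gbp3 had 205, 212 and 205 CPM in sEH-/- against 211, 185 and 208 CPM in wild-type. Apart from the wild-type library at 185 CPM, its libraries lay between 205 and 212 CPM. In the fit this came to 0.045 on the log2 scale (SE 0.074, adjusted p = 0.768).

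Gbp5, whose product has been tied to assembly of the NLRP3 inflammasome, had 199, 170 and 177 CPM in sEH-/- against 185, 168 and 178 CPM in wild-type. Its highest library was sEH-/- replicate 1, and the genotypes overlapped otherwise. Its log2 fold change of 0.046 (SE 0.079) had an adjusted p of 0.778.

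Gbp7, which has been linked to assembly of the phagocyte oxidase, had 214, 169 and 157 CPM in sEH-/- against 188, 174 and 169 CPM in wild-type. Both its highest and its lowest value were sEH-/-. With an SE of 0.11, its log2 fold change of 0.027 was the least precise of the cluster (adjusted p = 0.910). For Gbp3, Gbp5 and Gbp7 the 95% intervals of the fold ran from 0.921 to 1.16, from 0.914 to 1.17 and from 0.862 to 1.20, so that a change of 1.5-fold lay outside the interval of each chromosome 3 member.

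The chromosome 5 members were more spread, with log2 fold changes from -0.18 to 0.52 (median 0.295) against 0.011 to 0.046 (median 0.036) on chromosome 3. Summed over the 4 genes of a cluster, the chromosome 5 members reached 507, 438 and 361 CPM in sEH-/- against 409, 335 and 381 CPM in wild-type. The chromosome 3 members reached 875, 816 and 827 CPM in sEH-/- against 878, 772 and 819 CPM in wild-type. Both sums overlapped between the genotypes, and the chromosome 5 sum of the sEH-/- mice spanned the wider range. Whether the 2 clusters differ in their response was not tested.

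Gbp9 had the largest fold change of the members. Its levels were 150, 136 and 85.6 CPM in sEH-/- against 105, 71.1 and 86.0 CPM in wild-type. The first 2 sEH-/- libraries lay above all wild-type libraries, while sEH-/- replicate 3 lay below 2 of them. On the log2 scale the difference was 0.52 (SE 0.19, 95% interval 0.097 to 0.94), with an edgeR adjusted p of 0.134. DESeq2 gave the same log2 fold change with an adjusted p of 0.0486, which passed its p threshold but not the fold threshold. Without sEH-/- replicate 3 the value was 0.73 (edgeR adjusted p = 0.0221) and Gbp9 was called. Over the 18 alternatives the adjusted p ran from 0.0221 to 0.436, apart from glmTreat. That fit tests for a change beyond the fold threshold and did not call Gbp9.

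Gbp4 followed a similar order of libraries, with 208, 154 and 122 CPM in sEH-/- against 147, 112 and 133 CPM in wild-type. Here too the first 2 sEH-/- libraries were the highest and replicate 3 lay among the wild-type values. Its log2 fold change was 0.32 (SE 0.17, edgeR adjusted p = 0.290), and it was 0.088 without sEH-/- replicate 1, the library with the highest Gbp4 value. Gbp4 and Gbp9 were each other's nearest member in profile, with a root mean square difference of 0.155 on the log2 scale over 6 libraries. Reads wholly inside the 144-base run printed above cannot be assigned to either gene.

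Gbp6 had 42.9, 46.6 and 40.1 CPM in sEH-/- against 39.1, 31.8 and 36.8 CPM in wild-type. Every sEH-/- library was above every wild-type library, the nearest pair being 40.1 and 39.1 CPM. The fit gave a log2 fold change of 0.27 (SE 0.11, 95% interval 0.028 to 0.52) with an edgeR adjusted p of 0.170. These counts were 173 to 251 per library, and how many reads over the sequence shared with other genes were kept among them was not tested.

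Gbp8 was the one member with a lower level in sEH-/-, at 106, 100.5 and 113 CPM against 118, 119 and 126 CPM in wild-type. The genotypes did not overlap. A log2 fold change of -0.18 (SE 0.071, 95% interval -0.34 to -0.027) came with an edgeR adjusted p of 0.151. It stayed between -0.22 and -0.13 when each library was left out. Gbp8 and Gbp9 begin at nearly the same position, and of all pairs of members their profiles were the farthest apart (0.473 on the log2 scale).

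**Figure D3:**
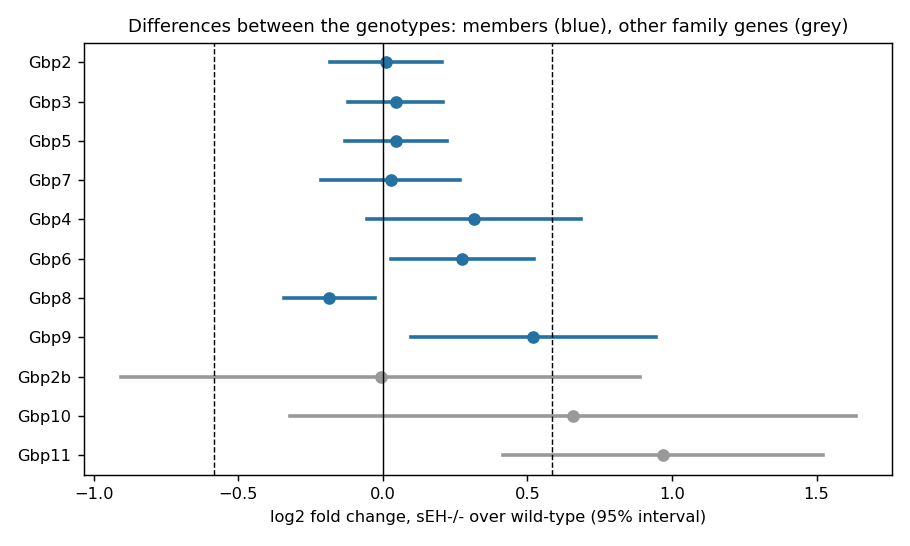
Log2 fold change of sEH-/- over wild-type (horizontal axis) with its 95% interval, for the 8 members in blue and the other family genes in grey, with dashed lines at a fold of 1.5 in either direction. The 4 chromosome 3 members sit at 0.011 to 0.046 and the chromosome 5 members between -0.18 and 0.52, while Gbp11 is at 0.97.

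The size of these differences was ordinary for genes of this abundance. Among the 6956 tested genes whose mean count lay in the members' range (206 to 1398), the median absolute log2 fold change was 0.107, against 0.115 for the members, and the median SE was 0.0862, against 0.0978. Each chromosome 3 member, at 0.011 to 0.046, lay below 0.107. Each chromosome 5 member (Gbp8 -0.18, Gbp6 0.27, Gbp4 0.32 and Gbp9 0.52) lay above it in absolute size. Of those 6956 genes, 1.83% were called.

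To look at the chromosome 5 members apart from the level of the family in each library, their log2 CPM was set against the mean log2 CPM of the chromosome 3 members. Gbp9 then lay at -0.54, -0.55 and -1.23 in sEH-/- against -1.03, -1.42 and -1.22 in wild-type. The ratio of Gbp4 was -0.07, -0.38 and -0.72 in sEH-/- against -0.55, -0.76 and -0.60 in wild-type. For both genes the first 2 sEH-/- libraries stood above the other 4 libraries, as they had in CPM, and replicate 3 did not.

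Gbp8 on this scale lay at -1.03, -0.99 and -0.83 in sEH-/- against -0.87, -0.67 and -0.68 in wild-type, so that its genotypes now overlapped. Gbp6 lay at -2.33, -2.10 and -2.32 in sEH-/- against -2.45, -2.57 and -2.44 in wild-type. Its genotypes remained apart.

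Removal of duplicate reads bounds how many reads a short, abundant transcript can keep, and Gbp2 was the member with the most counts per exonic base (0.556, against 0.326 for Gbp3 and 0.035 to 0.173 for the others). Ordered from the smallest to the largest library, Gbp2 was at 288, 295, 265, 265, 258 and 245 CPM, so its 2 smallest libraries averaged 291 and its 2 largest 252 CPM. For Gbp3 the same averages were 208 and 195 CPM, and for Gbp9, which has few counts per base, they were 95.4 and 111 CPM. Corrected for an assumed ceiling of 1 count per base, Gbp2 was at 335 to 384 CPM, above its uncorrected levels. Its 2 smallest libraries, at 363 and 384 CPM, still stood above its 2 largest, at 353 and 335 CPM. With this correction the log2 fold change of Gbp2 was -0.030 in place of 0.011. That of Gbp8 was -0.21, that of Gbp4 0.34 and that of Gbp9 0.56, and none of the 8 was called.

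**Figure D4:**
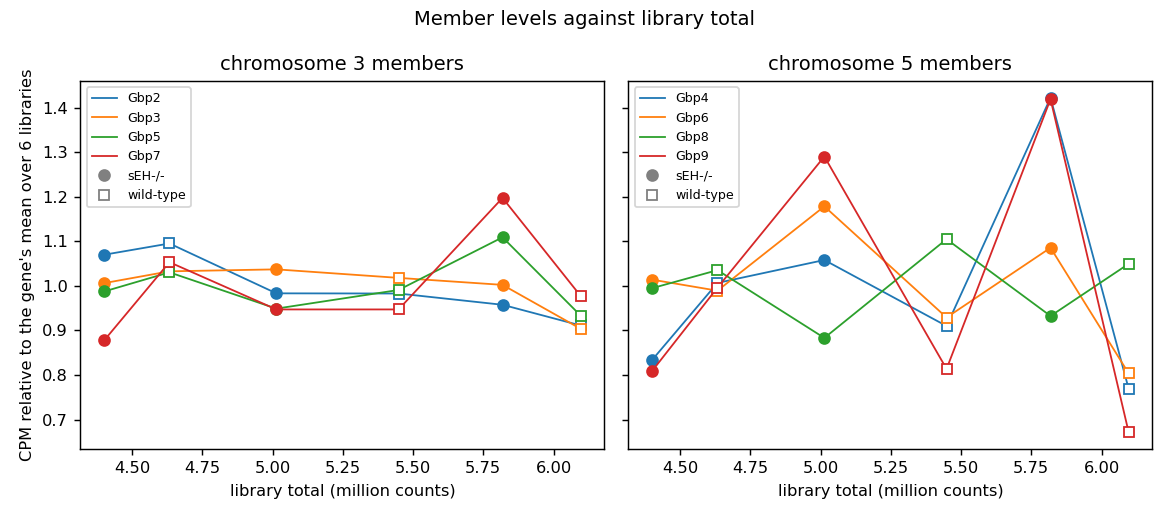
CPM of each member relative to its mean over the 6 libraries (vertical axis) against library total (horizontal axis), with sEH-/- as filled circles and wild-type as open squares. Gbp2 goes from 295 and 288 CPM in the 2 smallest libraries to 245 CPM in the largest, while Gbp4 and Gbp9 peak in sEH-/- replicate 1.

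The table also held 3 further family genes. Gbp11, annotated as a polymorphic pseudogene at chr5:105323042-105346472, had 33.02, 28.1 and 17.4 CPM in sEH-/- against 16.1, 9.90 and 14.9 CPM in wild-type. The genotypes did not overlap, the closest values being sEH-/- replicate 3 and wild-type replicate 1. Gbp11 had a log2 fold change of 0.97 (SE 0.25) with an edgeR adjusted p of 0.0558, just short of a call, whereas DESeq2 called it with an adjusted p of 0.00763. It was called under 4 of 18 alternatives. Gbp10 had 11.3, 4.64 and 2.78 CPM in sEH-/- against 4.40, 3.57 and 4.30 CPM in wild-type, with 1 high library and an edgeR adjusted p of 0.410. Gbp2b, the neighbour of Gbp2, had 5 to 10 counts per library and a log2 fold change of -0.0077 (adjusted p = 0.995).

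The genes that control the family, or act with it, were counted by lists. Of 68 listed genes 65 were tested, and 3 were called higher and 0 lower, against 1.51% and 1.1% of all tested genes. Their median log2 fold change was 0.090, and 44 of 65 were above 0. At an unadjusted edgeR p below 0.05, 19 were higher and 2 lower, against 11.1% and 12.2% of all tested genes. Among ligands and receptors 0 of 4 tested genes were called. The receptor chain Ifngr1 had a log2 fold change of 0.22 (edgeR adjusted p = 0.181) and Ifngr2 of 0.064 (adjusted p = 0.699). Ifnb1 had no count in any library, which for a count of 0 allows up to 3 counts in each, and Ifng was not analysed here.

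Of the 13 signalling genes and interferon regulatory factors, 0 were called (median 0.183), against 1.51% of all tested genes called higher and 1.1% called lower. At an unadjusted edgeR p below 0.05, 5 were higher and 0 lower, against 11.1% and 12.2% of all tested genes. The genotypes did not overlap for 4 that were higher and 0 that were lower, against 11.8% and 14.5% of all tested genes. These 4 were Jak2, Tyk2, Stat2 and Socs3. Stat2 had the largest log2 fold change of the 4, 0.41 (edgeR adjusted p = 0.0508). With DESeq2 it passed the p threshold (adjusted p = 0.00146) but not the fold threshold. Socs3 had 0.32 (edgeR adjusted p = 0.0528, DESeq2 adjusted p = 0.0601). Irf1, which binds ISREs, had a log2 fold change of 0.090 (adjusted p = 0.619), Irf8, a macrophage lineage factor, -0.0063 (adjusted p = 0.978) and Socs1, the feedback inhibitor of the receptor kinases, -0.099 (adjusted p = 0.598).

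The immunity-related GTPases are a second family of interferon-γ-induced GTPases that act with the Gbp proteins on vacuoles. Of 12 tested, 0 were called, against 1.51% of all tested genes called higher and 1.1% called lower. Their median log2 fold change was 0.16, against 0.046 for the Gbp members. In this family 5 were higher and 0 lower at an unadjusted edgeR p below 0.05, against 11.1% and 12.2% of all tested genes. Without overlap between the genotypes were 3 that were higher and 0 that were lower, against 11.8% and 14.5% of all tested genes. Among these 12 genes, Irgm2, which regulates the others, passed the p threshold (log2 fold change 0.40, SE 0.094, edgeR adjusted p = 0.0462) but not the fold threshold. Genes of ATG8 conjugation and prenylation, listed as used by the Gbp proteins, had a median of -0.046. Of these, 0 of 15 were called, against the same 1.51% and 1.1% of all tested genes.

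Inflammasome and pyroptosis genes, whose products act downstream of the Gbp proteins, had 2 of 9 called higher (median 0.186), against 1.51% of all tested genes. DESeq2 called 3, against 3.42% of all tested genes. Il1b, the interleukin-1β precursor, was at 54.6, 29.1 and 32.5 CPM in sEH-/- against 11.2, 4.71 and 8.25 CPM in wild-type, without overlap (log2 fold change 2.31, SE 0.31, edgeR adjusted p = 0.0105). Nlrp3, the sensor of the NLRP3 inflammasome, was at 156, 192 and 155 CPM against 98.3, 79.5 and 80.8 CPM, also without overlap (log2 fold change 0.97, SE 0.11, edgeR adjusted p = 0.00581). Both rose in sEH-/-. The study had already reported both as increased from these libraries, so these 2 calls are not independent of it. Il18, the interleukin-18 precursor, was at 19.7, 31.1 and 21.6 CPM against 14.3, 13.5 and 16.5 CPM, without overlap, and had a log2 fold change of 0.71 (SE 0.19) with an edgeR adjusted p of 0.065 and a DESeq2 adjusted p of 0.0414. Casp4, the mouse caspase that senses lipopolysaccharide, had 0.29 (adjusted p = 0.105) and Gsdmd, the pore-forming gasdermin D, 0.19 (adjusted p = 0.185).

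Of the other interferon-γ-induced genes, 1 of 12 tested was called higher, against 1.51% of all tested genes, and the median was 0.045. The called gene, the chemokine Cxcl10, was at 51.7, 40.4 and 9.97 CPM in sEH-/- against 4.62, 0.811 and 2.51 CPM in wild-type (log2 fold change 3.78, SE 0.62, edgeR adjusted p = 0.0178). Its sEH-/- libraries stood in the same order as those of Gbp4 and Gbp9, with replicate 1 highest and replicate 3 lowest. Gbp7, Gbp10 and Gbp11 also had this order. How many of all tested genes share it was not counted, and a link between these genes was not tested. In the same list 5 of 12 tested genes had a log2 fold change below 0. Ciita, the activator of MHC class II genes, had -0.56 (edgeR adjusted p = 0.0802) and the chemokine Cxcl9 -0.25 (edgeR adjusted p = 0.112), both without overlap between the genotypes and neither called. Fcgr1, higher in sEH-/-, had 0.45 (edgeR adjusted p = 0.0648, DESeq2 adjusted p = 0.0071), also without overlap and not called. Over this list the genotypes did not overlap for 2 genes that were higher and 2 that were lower, against 11.8% and 14.5% of all tested genes.

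**Figure D5:**
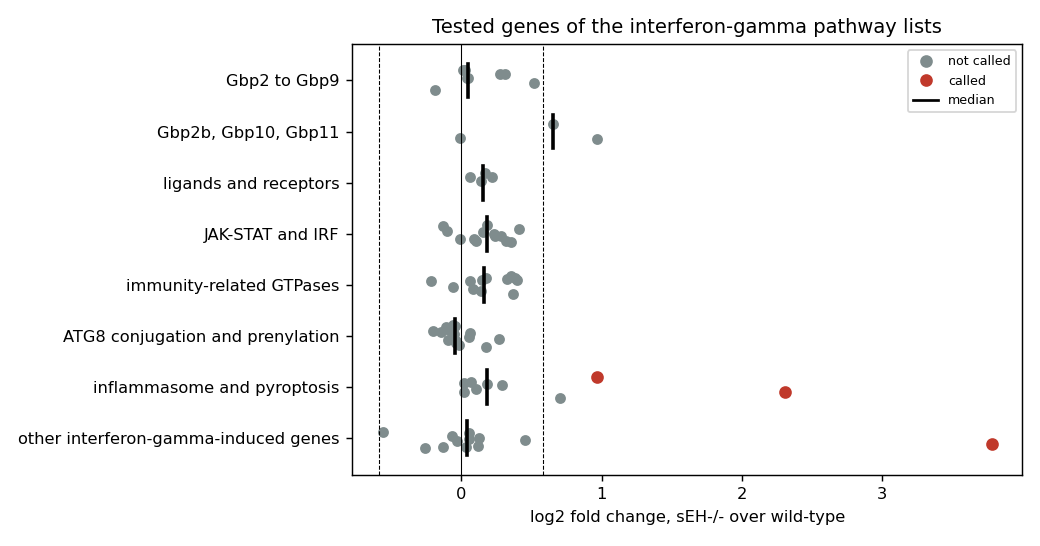
Log2 fold changes of sEH-/- over wild-type (horizontal axis) for the tested genes of each list, with called genes in red, other genes in grey and a black bar at the list median, and dashed lines at a fold of 1.5 in either direction. Only Nlrp3, Il1b and Cxcl10 are red, at 0.97, 2.31 and 3.78, while the bar of Gbp2 to Gbp9 is at 0.046.

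Around the 2 clusters, 16 other genes within 500 kb were tested, 6 on chromosome 3 and 10 on chromosome 5, with Gbp2b, Gbp10 and Gbp11 among them. Of the 16, 0 were called, against 2.61% of all tested genes. Gbp11 and Abcg3 (higher in sEH-/-) and Lrrc8b, Zfp951 and Gm42141 (lower) had an unadjusted edgeR p below 0.05. All of these lie on chromosome 5, and 23.4% of all tested genes had such a p. The log2 fold changes of the 16 genes ran from -0.17 to 0.67 on chromosome 3 and from -0.94 to 1.44 on chromosome 5. Over the whole table, the 5 genes whose profile across the 6 libraries was nearest to the mean profile of the members, of 10269 with a mean of at least 50 counts, were Mccc2, Ccdc174, Mrrf, Stx2 and Ehbp1l1, with root mean square differences of 0.023 to 0.036 on the log2 scale. Within the family, the closest pair was Gbp2 and Gbp3 at 0.068, and the nearest member to Gbp5 was Gbp3 (0.083) and to Gbp7 was Gbp5 (0.092).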

How the data were processed

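RNA-seq of M2c macrophages from 3 sEH-/- and 3 wild-type mice was used. The authors deposited raw, unnormalised counts per gene. According to the submitters' processing notes and the methods, reads were trimmed (Trimmomatic 0.39), aligned to mm10 (STAR 2.7.7a), stripped of duplicates (Picard 2.21.7) and of ribosomal, mitochondrial and multiply aligned reads, then counted over exons by strand (featureCounts 1.6.5), followed by DESeq2 1.30.0. Duplicate removal limits counts of short abundant transcripts, and dropping multi-mapping reads lowers those of near-identical genes. Labels and methods differ on some tool versions, the RNA input and the library kit.

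The main test was edgeR 4.0.16 in R 4.3.3 (TMM factors 0.982 to 1.03, glmQLFit, glmQLFTest, no covariate). Genes with a mean above 5 counts were tested (13785 genes, 99.8% of counts), with Benjamini-Hochberg adjustment over all of them. The SE of a log2 fold change is its size over the square root of the F statistic. CPM uses TMM-scaled totals. The biological coefficient of variation was 0.0866. DESeq2 1.42.0, the study's tool, and limma 3.58.1 (voom) were alternatives, with other normalizations, filters, covariates, call rules and left-out libraries. Exonic lengths and coding sequences came from GENCODE M21 (19286 of 19309 identifiers matched, all on the same chromosome), and promoters from a RefSeq table, of which the entries of 4 members were used. Of the depositors' other columns, none held values of a sample. Between libraries of 1 genotype, chi-square per degree of freedom was 1.96 to 3.96, above sampling noise, so all 6 were kept as separate samples. Intervals cover these 6 libraries, and a count of 0 is read with a limit of 3 counts.

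The members and the lists were chosen with earlier results of these data known. Named were all 8 members, Ephx2, Gbp2b, Gbp10 and Gbp11, 8 fixed pathway genes (1 of them not reported here), per list and direction up to 3 called genes by mean count, called neighbours within 500 kb, and the 5 nearest profiles. Irgm2, Il18, Ciita, Cxcl9, Fcgr1, Jak2, Tyk2, Stat2, Socs3, Ifnb1 and Ifng were named after the values were seen. So were the neighbours Abcg3, Lrrc8b, Zfp951 and Gm42141. Marker lists covered macrophages, dendritic cells, neutrophils, erythroid cells, lymphocytes, and stromal and endothelial cells.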

Additional observations from a re-analysis of the deposited data

How the results depend on the processing

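Differences under 1.5-fold were not called whatever their p, and depth limits Gbp2b (5 to 10 counts) most. The members called higher were 0 under every alternative but 1, the fit without sEH-/- replicate 3, which called Gbp9, and leaving out each library gave 0 to 1 higher and 0 lower. The number of all tested genes called, 360, was 6 to 625 when 1 library was left out, 553 without a fold threshold, 171 with the library total as a covariate and 10 with glmTreat. Without wild-type replicate 3 it was 6, without wild-type replicate 2 it was 25, without sEH-/- replicate 2 it was 96, without sEH-/- replicate 3 it was 570 and without wild-type replicate 1 it was 625. The 3 pathway genes called higher were 0 with glmTreat and 0 to 4 when 1 library was left out, with 0 without wild-type replicate 3. Replicate numbers showed no sign of pairing the libraries: deviations of same-numbered libraries correlated at -0.082, -0.260 and -0.037, and no sEH-/- library correlated best with its own number. Deviations from a mean of only 3 libraries per genotype cannot exclude a pairing. With a replicate block, 234 genes were called, and Gbp2b was at 0.028. The log2 fold change of Gbp2 was -0.009 without TMM factors, -0.032 with the library total as a covariate and -0.030 under the ceiling correction, and that of Gbp2b was 0.032 with DESeq2 and 0.001 under the ceiling correction. When 1 library was left out, values ran from -0.051 to 0.082 for Gbp2, -0.015 to 0.079 for Gbp3, -0.023 to 0.110 for Gbp5, -0.118 to 0.124 for Gbp7, -0.254 to 0.266 for Gbp2b and -0.115 to 0.994 for Gbp10, crossing 0, and from 0.088 to 0.486 for Gbp4, 0.190 to 0.337 for Gbp6 and 0.361 to 0.731 for Gbp9. The cause of these moves was not tested.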

Other observations

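Among genes outside the family, chosen after the values were seen, the profile nearest to that of Gbp9 over the 6 libraries was Rwdd2b (root mean square difference 0.074 on the log2 scale), followed by Maf (0.080) and Cenpt (0.092). The profile nearest to Gbp11 was Oas1b, at 0.098, an interferon-induced gene of the oligoadenylate synthetase family, followed by Gas8 (0.126) and Zeb1 (0.13). For Gbp2 it was Wfdc17, at 0.017, followed by Vat1 (0.020), Crtap (0.020) and Scamp2 (0.023). The fifth was Tap1 (0.024), a peptide transporter gene also induced by interferon-γ. Whether near profiles reflect shared control was not tested.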
